A study of Mus musculus with 43 samples.

Results

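The expression of 10 target and feedback genes of the canonical Wnt pathway was followed in mouse colon organoids and mouse colon fibroblasts under drug treatment. The genes were Axin2, Nkd1, Notum, Rnf43, Znrf3, Lgr5, Ascl2, Sp5, Lef1 and Tcf7. They were chosen by gene symbol, whatever their level, and are 10 of the 52636 genes in each of the 2 expression tables. All 10 were found in both tables. Bulk RNA sequencing had been used to ask how colon epithelium and its stroma respond to regorafenib, a multi-kinase inhibitor given to patients with chemo-refractory colorectal cancer.

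Organoids came from adult Vil-cre/ERT2 mice, in which the villin promoter places a tamoxifen-dependent Cre in the intestinal epithelium. Colonoids (lines M41, M40 and M1) carried Apcwt/wt. Tumoroids (lines F11, M3 and M14) carried Apcflox/flox, recombined by tamoxifen given in vivo, and the mice of both genotypes carried Cre and had received tamoxifen. Each line stems from 1 mouse, so that a line is the replicate. All organoids grew in a medium with EGF, Noggin, Rspondin 1 and Wnt3a conditioned medium, so Wnt ligand was supplied to both genotypes. GEO titles of the 3 tumoroid 5-FU libraries name colonoids, while their genotype labels and library names give the Apc-deficient lines and were followed. Each line was treated for 6 days with vehicle (Ve, DMSO), 4 µM regorafenib (R4), 8 µM regorafenib (R8) or 1 µM 5-FU, an antimetabolite, which gave 24 libraries in 8 groups of 3. Fibroblasts were 4 primary lines of wild-type C57B/6 mice (M3, M3(2), M1(2) and M11), grown in serum without added Wnt ligand in the stated medium. They were treated for 7 days with Ve, R4, 1 µM autogramin-2 (A1, an inhibitor of autophagy) or both drugs (R4A1), and 3 of the lines also with 10 µM regorafenib (R10), which gave 19 libraries.

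In the canonical pathway, Wnt ligands bind Frizzled and Lrp receptors and silence a complex built on Apc and Axin proteins that otherwise sends beta-catenin to degradation. Stabilised beta-catenin then joins TCF/LEF factors on DNA and turns on target genes. At the base of the colonic crypt this signal maintains the stem cells, and loss of Apc switches it on without ligand in most colorectal tumors. Many targets feed back on the pathway. Axin2 rebuilds the destruction complex, Nkd1 dampens Dishevelled, Notum is a secreted enzyme that removes the lipid of Wnt proteins, and the membrane ligases Rnf43 and Znrf3 clear Frizzled receptors from the surface. Lgr5 is the R-spondin receptor that marks crypt stem cells. Ascl2 and Sp5 are transcription factors encoded by target genes, and Lef1 and Tcf7 are TCF/LEF factors themselves.

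The promoters of Sp5, Axin2 and Ascl2, 3 of the members called in a comparison for which a promoter window was at hand, are shown because the pathway acts through TCF/LEF sites. They are the 250 bases before the annotated start (RefSeq, mouse build GRCm38.p6), written from 5′ to 3′ on the strand of the gene. Capitals mark the TCF/LEF core CTTTGA, which was searched on both strands, so that TCAAAG also counted.
Sp5: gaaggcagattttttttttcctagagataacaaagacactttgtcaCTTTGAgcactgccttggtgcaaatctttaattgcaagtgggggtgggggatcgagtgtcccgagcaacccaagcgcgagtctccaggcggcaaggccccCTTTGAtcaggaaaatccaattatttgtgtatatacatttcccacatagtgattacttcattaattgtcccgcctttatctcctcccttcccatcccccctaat
Axin2: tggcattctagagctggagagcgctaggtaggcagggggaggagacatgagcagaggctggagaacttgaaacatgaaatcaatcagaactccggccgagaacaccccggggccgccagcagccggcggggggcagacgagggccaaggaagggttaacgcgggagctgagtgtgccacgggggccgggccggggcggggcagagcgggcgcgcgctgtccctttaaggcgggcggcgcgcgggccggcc
Ascl2: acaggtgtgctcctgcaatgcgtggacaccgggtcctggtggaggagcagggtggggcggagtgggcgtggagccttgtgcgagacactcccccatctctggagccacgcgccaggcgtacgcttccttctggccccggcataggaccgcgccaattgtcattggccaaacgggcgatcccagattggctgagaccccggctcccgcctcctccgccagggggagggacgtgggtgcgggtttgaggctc
The Sp5 window lies at chr2:70474673-70474922 on the plus strand, the Axin2 window at chr11:108920099-108920348 on the plus strand and the Ascl2 window at chr7:142969265-142969514 on the minus strand. The Sp5 window held the core at 2 places, −204 and −104 from the start, and the second one reads on to the longer form CTTTGAT. No core stood in the windows of Axin2 and Ascl2. RefSeq windows were at hand for 7 of the 10 members, 12 windows in all, and 2 windows held the core, that of Sp5 and 1 of the 4 of Lef1. Among 32851 promoter windows of the genome 13.8% held CTTTGA and 3.21% held CTTTGAT, which contains the shorter form. A match describes letters and not binding, and a window without one says nothing of sites elsewhere.

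The deposited unit is CP20M, the count of a gene scaled to 20000000 counted reads per library and not divided by gene length. Whole reads could be recovered from the values and gave 512592 reads in the shallowest organoid library, line M41 in R4, where 1 read is 39.0 CP20M. The next lowest organoid library had 4371813 reads and the organoid median was 15697936, while fibroblast libraries had 7949965 to 12825919. In that M41 library Axin2 and Znrf3 rested on 11 reads each, Sp5 on 10, Tcf7 and Notum on 2 and Lgr5 on 1, and it was left out in turn below. Of 10 epithelial markers, 8 (such as Epcam and Cdh1) were above 200 CP20M in every organoid library, while Krt20 and Cdx1 had minima of 5 and 0 CP20M, and fibroblast markers summed to at most 164 CP20M there. In fibroblasts the 10 fibroblast markers summed to at least 137086 CP20M and the epithelial ones to at most 316 CP20M. The count of Apc itself was 1542 to 4944 CP20M in colonoids and 3813 to 6032 CP20M in tumoroids, but a gene count includes exons outside the deleted part and so does not check the deletion.

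Differences were tested with limma on log2(CP20M + 20), and a gene was called at an adjusted p under 0.05 and at least 1.5-fold. A gene entered a fit if 2 or more of its libraries reached 200 CP20M. Of the members, 7 were tested in organoids (Axin2, Rnf43, Znrf3, Lgr5, Ascl2, Sp5 and Tcf7) and 3 in fibroblasts (Znrf3, Sp5 and Tcf7). Nkd1 and Lef1 stayed at or under 22 CP20M in every organoid library, and Notum did not pass the filter in either table. Ascl2 passed in the vehicle and regorafenib libraries only through the 2 tumoroid lines that were high in Ve, so its values without the filter are given as well. Sp5 passed in fibroblasts only through line M3(2) in R4 and R4A1.

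Per length, Rnf43 was the highest member in vehicle-treated colonoids, with 582 ± 187 CP20M per kb of exon (mean ± SD, n = 3 lines). Axin2 followed with 355 ± 95.1 and Tcf7 with 177 ± 12 CP20M per kb. The ranges of Rnf43 and Axin2 overlapped, whereas Tcf7 lay below both. Znrf3 (80.6 ± 22.1), Ascl2 (64.9 ± 23.2), Lgr5 (39.2 ± 21.8) and Sp5 (39.1 ± 9.84 CP20M per kb) came next, below Tcf7, and each of these overlapped its neighbour in this order. Notum stood at 9.0 ± 4.32, and Lef1 and Nkd1 at 0.986 ± 1.31 and 0.658 ± 0.791 CP20M per kb, the last pair overlapping.

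In vehicle-treated tumoroids Axin2 came first, with 1360 ± 342 CP20M per kb, and Rnf43 second with 998 ± 181, again overlapping. Tcf7 (339 ± 57.6) and Znrf3 (204 ± 26.1 CP20M per kb) kept the places they had in colonoids. Ascl2 (175 ± 126), Sp5 (131 ± 49.7), Lgr5 (130 ± 118) and Notum (40.8 ± 19.8) formed a run in which every neighbour overlapped, and Nkd1 and Lef1 were at 1.76 ± 2.28 and 0.266 ± 0.237 CP20M per kb. Fibroblasts had another order, given from a table scaled on its own. Znrf3 (43.8 ± 2.39, n = 4 lines) and Tcf7 (41.1 ± 26.7) were highest, followed by Sp5 (19.8 ± 24.3), Axin2 (8.72 ± 8.04), Nkd1 (6.97 ± 2.13), Rnf43 (5.87 ± 0.936) and Lef1 (3.64 ± 1.41 CP20M per kb). Ascl2, Notum and Lgr5 were lowest there, at 2.16 ± 3.2, 1.14 ± 0.921 and 0.536 ± 0.639 CP20M per kb. All neighbours in the fibroblast order overlapped.

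**Figure D1:**
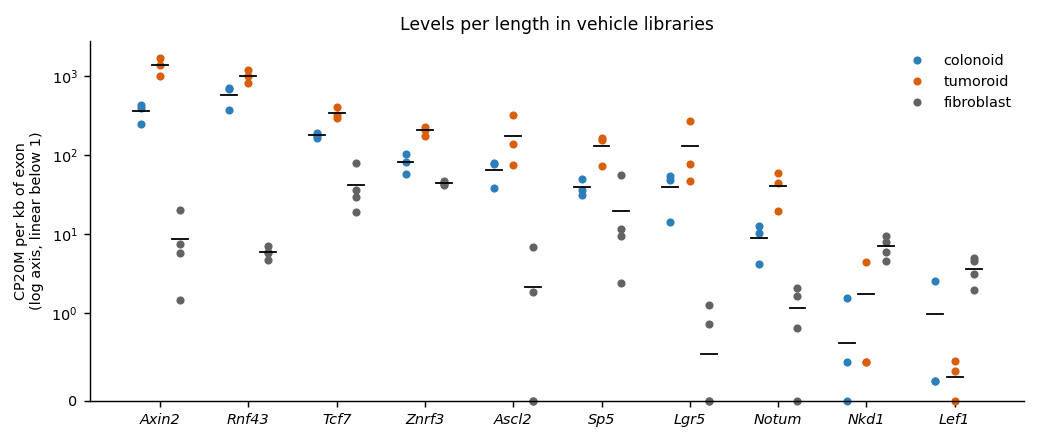
Level of each member in vehicle libraries, in CP20M per kb of exon on an axis that is logarithmic above 1 and linear below. Points are lines (3 colonoid, 3 tumoroid and 4 fibroblast) and bars are means. Axin2 and Rnf43 head the organoid lines, at 355 to 1360 CP20M per kb on average, and Nkd1 and Lef1 lie under 2 CP20M per kb there on average.

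The first comparison asked how the members differ between tumoroids and colonoids in vehicle. All 7 tested members had a positive log2 fold change, with a median of 1.34 against 0.05 over all 11320 genes tested. Ascl2 is among the 7 only through tumoroid libraries in Ve where it is high, so its sign gives no support by itself. Of the 7, 2 were called, Axin2 and Znrf3, both higher in tumoroids. Over all genes, 1.39% were called in either direction and 0.627% as higher. In 5 of the 7 tested members (Axin2, Rnf43, Znrf3, Sp5 and Tcf7) every tumoroid library lay above every colonoid library, as it did for 16.1% of all genes tested.

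Axin2 (ENSMUSG00000000142, chr11:108920349-108950783, plus strand, GRCm38), the scaffold that rebuilds the destruction complex, was at 1366, 2134 and 2366 CP20M in colonoid lines M41, M40 and M1. It was at 5552, 9312 and 7610 CP20M in tumoroid lines F11, M3 and M14. The groups did not overlap, and the lowest tumoroid line stood well above the highest colonoid line. Tumoroids exceeded colonoids by a log2 fold change of 1.93 ± 0.42 (SE, limma adjusted p = 0.0362), which is 3.82-fold. The call was lost without the filter on low values (adjusted p = 0.0679), with the 6 vehicle libraries alone (0.064), and without colonoid line M40 (0.212) or any one tumoroid line (0.064 without F11, 0.26 without M3 and 0.158 without M14).

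Axin2 shares 209 exonic bases with an antisense gene on the other strand, Gm11670, which was at 149, 259 and 257 CP20M in the colonoid lines and 630, 1086 and 877 CP20M in the tumoroid lines in Ve. Whether reads were counted by strand is not given in the sources used here, so reads of the pair cannot be told apart over those bases. Nkd1, the other intracellular feedback gene, was at 7, 0 and 2 CP20M in colonoids and 2, 20 and 2 CP20M in tumoroids, levels of 0 to 20 reads at which no difference was detectable. Notum, the secreted Wnt deacylase, was at 25, 10 and 30 CP20M in colonoids and 107, 141 and 47 CP20M in tumoroids. Its groups did not overlap either, but it was tested only without the filter, with a log2 fold change of 1.45 ± 0.58 (adjusted p = 0.369).

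Among the membrane ligases, Znrf3 (chr11:5276324-5444847, minus strand) was at 459, 642 and 808 CP20M in colonoids and 1636, 1799 and 1390 CP20M in tumoroids. The tumoroid lines lay close together and all above the colonoid lines. This gave a log2 fold change of 1.34 ± 0.26 (adjusted p = 0.0219), or 2.53-fold. It was called without the filter as well (0.0381), and lost with the 6 vehicle libraries alone (0.0867) and without M40 (0.175), F11 (0.0813), M3 (0.229) or M14 (0.081). Rnf43 (chr11:87662722-87735539, plus strand) was at 2395, 4503 and 4544 CP20M in colonoids and 6453, 7775 and 5411 CP20M in tumoroids. These groups were also apart, while the difference of 0.82 ± 0.34 on the log2 scale did not pass (adjusted p = 0.27).

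Lgr5 (chr10:115450311-115587780, minus strand), the stem cell receptor, was at 146, 500 and 561 CP20M in colonoids and 2720, 483 and 796 CP20M in tumoroids. Line F11 stood far above the rest, and line M3 lay within the colonoid range. The difference of 1.5 ± 0.78 on the log2 scale did not pass (adjusted p = 0.379), and without F11 it was 0.80 ± 0.74 (0.781). Ascl2 (chr7:142966829-142969264, minus strand), the stem cell transcription factor, was at 125, 62 and 129 CP20M in colonoids and 513, 120 and 220 CP20M in tumoroids. Here too F11 was highest and M3 overlapped the colonoid lines (log2 fold change 1.11 ± 0.55, adjusted p = 0.355).

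The 10 proliferation markers (such as Mki67 and Mcm2) summed to 50863 CP20M in F11 in Ve, against 6156 and 5700 CP20M in M3 and M14 and 5212 to 20003 CP20M in the colonoid lines. Their part in the Lgr5 and Ascl2 values of F11 was not tested. The 7 goblet cell markers (such as Muc2) summed to 1580 to 19345 CP20M in colonoids and 67 to 407 CP20M in tumoroids, and 4 of the 6 tested were lower in tumoroids. In bulk libraries fewer cells of a type and less RNA per cell cannot be told apart, and the part of cell makeup in the member values was not tested.

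Sp5 (chr2:70474923-70477729, plus strand), a zinc finger repressor among the targets, was at 76, 105 and 65 CP20M in colonoids and 324 CP20M in F11 and 344 CP20M in M14 among tumoroids, with M3 lower and a mean of 274 ± 104 CP20M (SD, n = 3 lines). The groups were apart, and the log2 fold change of 1.47 ± 0.42 missed the threshold (adjusted p = 0.0955). Tcf7 (chr11:52252371-52283014, minus strand) was at 434, 461 and 497 CP20M in colonoids and 771, 1060 and 838 CP20M in tumoroids. Its groups were apart with little spread in Ve, and the difference of 0.90 ± 0.43 did not pass (adjusted p = 0.332), nor did it with the 6 vehicle libraries alone (0.098). Without the shallow M41 library, both Sp5 (adjusted p = 0.0437) and Tcf7 (0.0179) were called, beside Axin2 (0.00645) and Znrf3 (0.00381). That library is of R4 and in neither vehicle group, so leaving it out changed the estimate of spread and not the vehicle values. The estimate of spread counts the libraries of a line as separate, though the line is the replicate. Lef1, the other factor of the TCF/LEF family, was at 22, 2 and 2 CP20M in colonoids and 3, 4 and 0 CP20M in tumoroids, with overlapping groups.

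**Figure D2:**
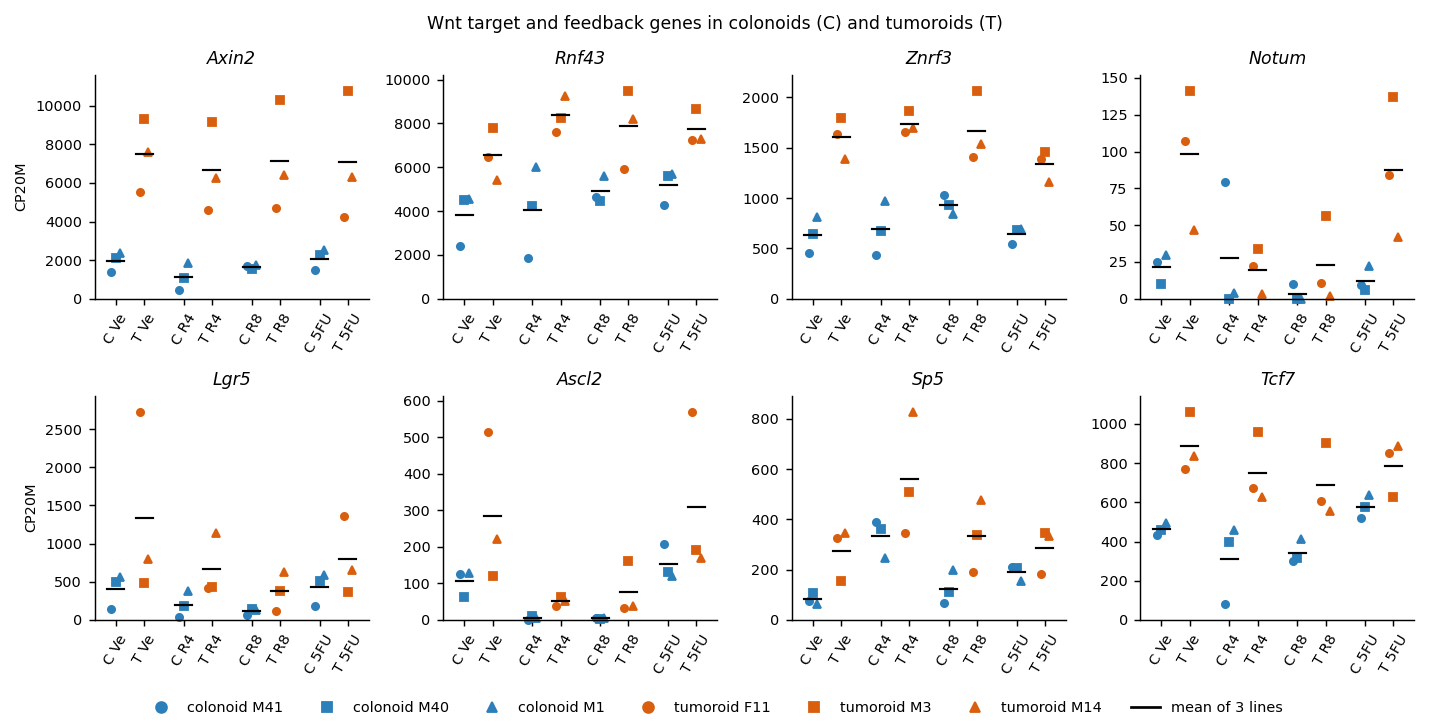
CP20M of 8 members in every organoid library, by genotype (C, colonoid, blue, and T, tumoroid, orange) and treatment (Ve, R4, R8 and 5-FU), on linear axes that start at 0. Symbols are lines and bars are means of 3. Axin2, Rnf43 and Znrf3 have every tumoroid line above every colonoid line in every treatment. Of all genes 16.1%, 14.0%, 17.9% and 8.66% did so in Ve, R4, R8 and 5-FU. Ascl2 is near 0 in colonoids under regorafenib, and line F11 stands high for Lgr5 and Ascl2 in Ve.

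The second comparison asked how the members respond to regorafenib, taken as the mean of R4 and R8 against Ve. Over both genotypes 2 of the 7 tested members were called, Ascl2 as lower and Sp5 as higher. Over all genes 8.63% were called as lower and 7.58% as higher, so that 1 of 7 in each direction is near the background. With the line as a block 3 were called, Lgr5 being added, against 17.9% of all genes, and edgeR called the same 3. The median log2 fold change of the 7 was −0.37, against −0.10 over all genes.

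Ascl2 was lower under regorafenib on average in both genotypes. In colonoids it was at 0, 11 and 5 CP20M in R4 and 6, 3 and 5 CP20M in R8, against 125, 62 and 129 CP20M in Ve. Both regorafenib groups lay below all vehicle lines, although a value of 0 in the shallow M41 library allows up to 117 CP20M (3 reads) and so does not by itself show a lower level. In tumoroids Ascl2 was at 37, 62 and 52 CP20M in R4 and 32, 160 and 39 CP20M in R8, against 513, 120 and 220 CP20M in Ve. Line M3 at 8 µM was the exception, above its own vehicle library, while F11 and M14 were lower at both doses.

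The log2 fold change of Ascl2 was −2.04 ± 0.34 over both genotypes (adjusted p = 0.000509) and −2.0 ± 0.34 without the shallow library (0.000388). The 7 goblet cell markers summed to 64 to 193 CP20M in R8 in colonoids, against 1580 to 19345 CP20M in Ve, and 6 of the 6 tested were lower under regorafenib there, whose part in the Ascl2 values was not tested. It was −2.29 ± 0.48 in colonoids (adjusted p = 0.00534) and −1.79 ± 0.48 in tumoroids (0.0329), and the genotypes' responses differed by 0.50 ± 0.67 (95% interval −0.83 to 1.82, adjusted p = 1.00). In colonoids 1 of the 7 tested members was called, against 13.3% of all genes, and in tumoroids 1 of 7, against 6.78% of all genes. Each was Ascl2, which had entered the fit only through tumoroid libraries in Ve where it is high. The tumoroid call therefore gives no support by itself, and the values without the filter follow. The colonoid call was lost without line M1 (0.0542), and the tumoroid call without colonoid line M40 (0.0568) or M1 (0.0596), which share the estimate of spread. Without tumoroid F11 or M14, Ascl2 no longer passed the filter. Without the filter the call held over both genotypes (0.000685) and in colonoids (0.00691), and was lost in tumoroids (0.0515). The pseudocount of 20 CP20M shrinks folds of low genes, and edgeR on the recovered reads gave −3.14 over both genotypes and −4.12 in colonoids.

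Sp5 went the other way. In colonoids it was at 391, 362 and 248 CP20M in R4 and 66, 109 and 197 CP20M in R8, against 76, 105 and 65 CP20M in Ve. All R4 values lay above all Ve values, including M41, whose 10 reads give a 95% Poisson interval of 187 to 718 CP20M (counting error only). At 8 µM only line M1 was clearly above its vehicle library. In tumoroids Sp5 was at 344, 508 and 826 CP20M in R4 and 189, 337 and 477 CP20M in R8, against 274 ± 104 CP20M in Ve. The lowest R4 line met the highest Ve line at the same value, and F11 differed little in R4 and was lower in R8.

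The log2 fold change of Sp5 over both genotypes was 0.86 ± 0.26 (adjusted p = 0.0227), or 1.81-fold. It lost the call without M40 (adjusted p = 0.0544), M1 (0.0689), M3 (0.136) or M14 (0.0674). In colonoids it was 1.1 ± 0.36 (adjusted p = 0.0532), called with the line as a block (0.0383), where 16.6% of all genes were called, and in tumoroids 0.61 ± 0.36 (0.361). Sp5 was the member with the clearest gap between doses, R8 against R4 giving −1.04 ± 0.30 on the log2 scale (95% interval −1.63 to −0.46). That difference did not pass over all genes (adjusted p = 0.13), and 0 of the 7 tested members were called by limma or edgeR between doses, against 0.451% of all genes, with 1 member (Sp5) at an unadjusted p under 0.05.

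Lgr5 in colonoids was at 40, 183 and 378 CP20M in R4 and 70, 148 and 133 CP20M in R8, against 146, 500 and 561 CP20M in Ve. Every colonoid line was below its own vehicle library at both doses. In tumoroids Lgr5 was at 412, 435 and 1135 CP20M in R4 and 114, 374 and 633 CP20M in R8, against 2720, 483 and 796 CP20M in Ve. The drop was widest in F11, and M14 was above its vehicle library in R4. Over both genotypes Lgr5 had a log2 fold change of −1.26 ± 0.48 (adjusted p = 0.0617), called with the line as a block (± 0.40, adjusted p = 0.0311), by edgeR (−1.30, 0.0265), with all 24 libraries (0.0489) and without line M41 (0.0406). Without F11 it was −0.69 ± 0.46 (adjusted p = 0.33), and the summed proliferation markers of F11 were 18687 CP20M in R4 and 15119 CP20M in R8, against 50863 CP20M in Ve, whose part was not tested.

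Notum in colonoids was at 79, 0 and 4 CP20M in R4 and 10, 0 and 0 CP20M in R8, against 25, 10 and 30 CP20M in Ve, the 79 CP20M being 2 reads. In tumoroids it was at 22, 34 and 3 CP20M in R4 and 11, 56 and 2 CP20M in R8, against 107, 141 and 47 CP20M in Ve. Each tumoroid line was lower than its vehicle library at both doses, all R4 values lay below all Ve values, and R8 overlapped Ve through line M3. Notum was tested only without the filter. There the log2 fold change over both genotypes was −1.04 ± 0.36 (adjusted p = 0.0801), and with the line as a block −1.04 ± 0.23 (0.0131). That fit called 7.73% of all 31036 genes, those too low for the filter included. In tumoroids Notum was at −1.57 ± 0.50 (adjusted p = 0.148), and with the block −1.57 ± 0.33 (0.0253), where 2.76% of the same 31036 genes were called.

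Axin2 in colonoids was at 430, 1065 and 1851 CP20M in R4 and 1671, 1560 and 1725 CP20M in R8, and in tumoroids at 4599, 9146 and 6281 CP20M in R4 and 4700, 10312 and 6391 CP20M in R8. These ranges overlapped those of Ve in both genotypes. Regorafenib gave a log2 fold change of −0.37 ± 0.26 (adjusted p = 0.309, 95% interval −0.88 to 0.14). Tcf7 was at 79, 397 and 459 CP20M in R4 and 300, 318 and 412 CP20M in R8 in colonoids, and at 671, 957 and 629 CP20M in R4 and 607, 903 and 554 CP20M in R8 in tumoroids. It was lower than its vehicle library in all 6 lines at both doses. In R4 the ratio to vehicle was 0.182 in the shallow M41 library and 0.751 (M14) to 0.924 (M1) in the others. In R8 the ratio ran from 0.661 (M14) to 0.852 (tumoroid M3). Tcf7 in R8 lay below all Ve values (434 to 497 CP20M) in colonoids and overlapped Ve in tumoroids. Its log2 fold change was −0.47 ± 0.26 (adjusted p = 0.197), and without the shallow library and with the line as a block −0.31 ± 0.07 (0.00363), which is under 1.5-fold.

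Neither membrane ligase was called. Rnf43 was at 1873 to 6009 CP20M in colonoids and 5937 to 9472 CP20M in tumoroids over R4 and R8, and Znrf3 at 430 to 1026 and 1404 to 2062 CP20M. Their log2 fold changes over both genotypes were 0.25 ± 0.21 (adjusted p = 0.399) and 0.20 ± 0.16 (adjusted p = 0.373). Nkd1 and Lef1 stayed between 0 and 20 CP20M in all regorafenib-treated organoids. In R8 Nkd1 was at 0, 5 and 0 CP20M in colonoids (2 reads in all) and 11, 20 and 18 CP20M in tumoroids (37 reads), levels under the filter.

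Counted line by line, Sp5 was the 1 tested member higher than vehicle in all 6 lines in R4, as 9.51% of all genes were. Ascl2, Axin2 and Tcf7 were lower in all 6 lines in R4, against 19.9% of all genes, and Lgr5 and Tcf7 in R8, against 17.9%. Ascl2 had passed the filter only through libraries in Ve where it is high, so its part in the count gives no support by itself. In the shallow M41 library in R4, Ascl2 had 0 reads (up to 117 CP20M, against 125 CP20M in Ve). Tcf7 had 2 reads there (95% Poisson interval 9.45 to 282 CP20M, counting error only, against 434 CP20M in Ve). The response to regorafenib was not shown to differ between genotypes for any member, with 0 of 7 at an adjusted p under 0.05 for the interaction by limma or edgeR, 0 at an unadjusted p under 0.05, and 0.00883% of all genes called. In colonoids, scaling with TMM factors moved the median of all genes by 0.11 on the log2 scale, from −0.14 to −0.03, and Ascl2 (−2.27 ± 0.48, adjusted p = 0.00472) and Sp5 (1.21 ± 0.38, 0.0376) kept their directions.

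**Figure D3:**
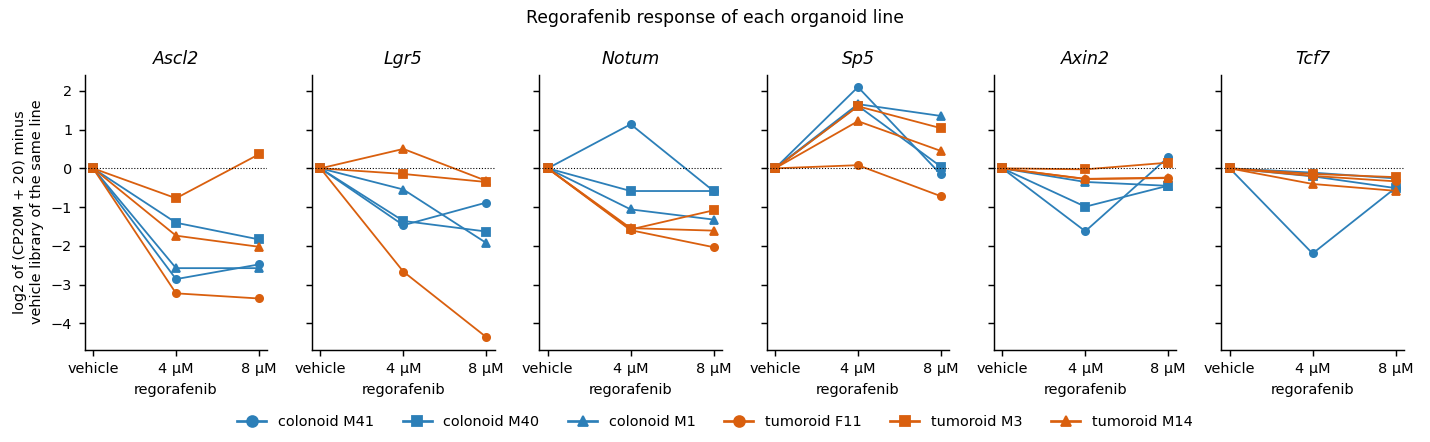
Response of 6 members to 4 and 8 µM regorafenib in each organoid line, as the difference in log2(CP20M + 20) from the vehicle library of the same line (blue, colonoids, and orange, tumoroids). Ascl2 lies below 0 in all lines at 4 µM, and in all but tumoroid line M3 at 8 µM, whereas Sp5 lies above 0 in every line at 4 µM and lower at 8 µM than at 4 µM, under 0 in colonoid line M41 and tumoroid line F11.

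Genotype under regorafenib was compared as the mean of R4 and R8 in tumoroids against that in colonoids. The fit had no term for the line and counted the R4 and R8 libraries of a line as separate, though the line is the replicate. Deviations from group means correlated within organoid lines, at 0.503 on average, so the SEs and adjusted p-values are likely too small. The number of calls therefore cannot be set against that in vehicle. Here 4 of the 7 tested members were called, all higher in tumoroids, against 2.12% of all genes in either direction and 1.64% as higher. They were Axin2 (log2 fold change 2.38 ± 0.30, adjusted p = 0.000788), Znrf3 (1.1 ± 0.18, 0.00548), Ascl2 (1.61 ± 0.39, 0.0418) and Tcf7 (1.22 ± 0.30, 0.0457). Ascl2 had entered the fit only through tumoroid libraries in Ve where it is high, so its call gives no support by itself. Rnf43 (0.93 ± 0.24, adjusted p = 0.0601), Sp5 (0.98 ± 0.30, 0.098) and Lgr5 (1.57 ± 0.55, 0.144) did not pass. The median of the members was 1.22, against 0.15 over all genes, and TMM scaling moved the latter by −0.14.

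Library by library, 6 of the 7 tested members (all but Sp5) had every tumoroid line above every colonoid line in R4, as 14.0% of all genes did. In R8, 5 of 7 (Axin2, Rnf43, Znrf3, Ascl2 and Tcf7) were apart in this way, as were 17.9% of all genes. Ascl2 is in both counts only through tumoroid libraries in Ve where it is high, so its part gives no support by itself. In R4 its value of 0 in the shallow M41 library allows up to 117 CP20M, above the tumoroid values (37 to 62 CP20M), so a separation is not shown there. The regorafenib groups share no library with the vehicle comparison, though they are of the same lines. Without the filter Axin2 and Znrf3 were called, and Ascl2 was not (adjusted p = 0.0515). Without colonoid line M40, or without tumoroid line M3, Axin2 was the 1 member called, and without F11 or M14 Axin2 and Znrf3 were. Without the shallow M41 library Rnf43 was called and Ascl2 was not. edgeR called 5 members, Rnf43 being added.

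Under 5-FU no member passed the test in organoids. Axin2 was at 1475, 2249 and 2521 CP20M in colonoids and 4215, 10756 and 6290 CP20M in tumoroids. Lgr5 was at 176, 512 and 589 CP20M in colonoids and 1365, 366 and 651 CP20M in tumoroids, and Ascl2 at 207, 131 and 119 and at 568, 191 and 169 CP20M. Each overlapped its vehicle group in both genotypes, and line F11 was again the highest for Lgr5 and Ascl2, with summed proliferation markers of 47471 CP20M. Sp5 was at 212, 208 and 153 CP20M in colonoids, above all 3 vehicle libraries, and at 181, 344 and 334 CP20M in tumoroids, within the vehicle range.

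Notum was at 9, 6 and 22 CP20M in colonoids and 84, 137 and 42 CP20M in tumoroids under 5-FU. Rnf43 (4272, 5592 and 5713 CP20M in colonoids, and in tumoroids 7223, 8654 and 7293 CP20M) exceeded vehicle in all 6 lines, as 14.2% of all genes were. Znrf3 was at 546, 684 and 692 CP20M and at 1390, 1460 and 1164 CP20M, and Tcf7 at 521, 577 and 635 CP20M and at 850, 625 and 889 CP20M, in colonoids and tumoroids. Tcf7 was above its colonoid vehicle range and overlapped it in tumoroids.

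With limma, 0 of the 7 tested members were called over both genotypes (2.35% of all genes), in colonoids (0.0432%), in tumoroids (0.182%) or for the interaction (0%), and edgeR called 0 members in each. At an unadjusted p under 0.05 stood 1 member, Sp5 in colonoids, with a log2 fold change of 1.06 ± 0.40 (adjusted p = 0.545). Over both genotypes Sp5 was at 0.57 ± 0.28 (adjusted p = 0.338) and Rnf43 at 0.37 ± 0.22 (0.463).

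Between genotypes under 5-FU, Axin2 (log2 fold change 1.69 ± 0.43, adjusted p = 0.189) and Znrf3 (1.04 ± 0.24, 0.118) reached an unadjusted p under 0.05, and limma called 0 of 7, against 0.138% of all genes. Axin2, Rnf43 and Znrf3 still had every tumoroid line above every colonoid line, as 8.66% of all genes did. edgeR called 1 member, Znrf3 (adjusted p = 0.0359), and limma called it without the shallow M41 library of another treatment (0.032). Whether the genotype gap differed between vehicle and 5-FU is the interaction above, in which no member passed.

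**Figure D4:**
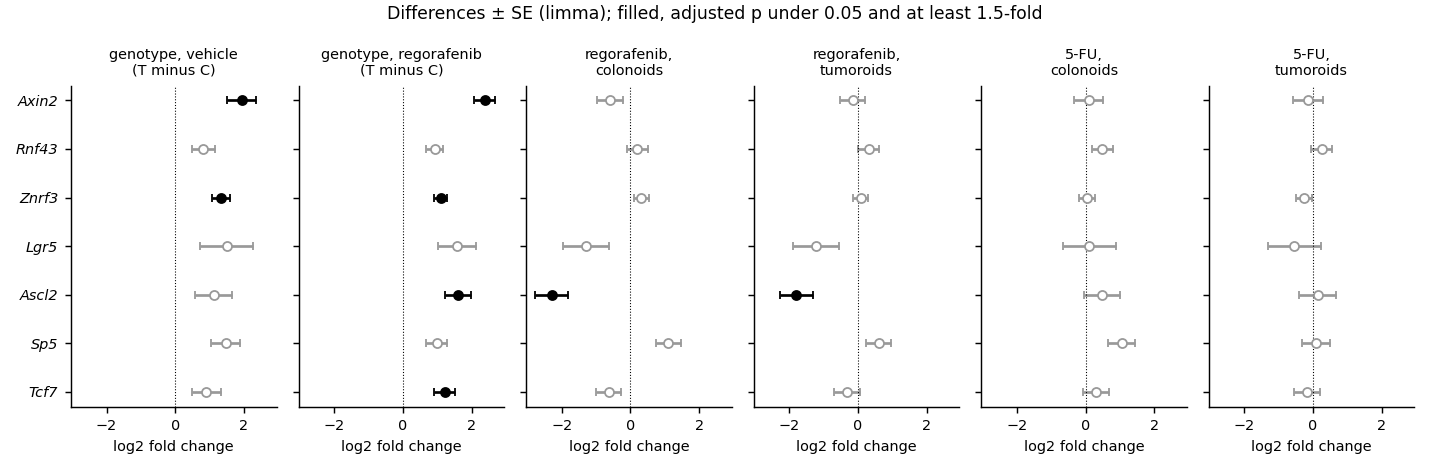
Log2 fold change ± SE (limma) of the 7 tested members in 6 comparisons, tumoroids minus colonoids in the first 2 panels and drug minus vehicle in the others. Filled points passed an adjusted p of 0.05 and 1.5-fold: Axin2 and Znrf3 between genotypes in both panels, Ascl2 and Tcf7 between genotypes under regorafenib, and Ascl2 for regorafenib within each genotype. Ascl2 passed the filter only through tumoroid libraries in Ve where it is high. The second panel counts R4 and R8 libraries of a line as separate.

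In fibroblasts the members stood low. The highest was Znrf3, with 326 to 369 CP20M in Ve, 320 to 397 in R4, 310 to 372 in R10, 310 to 392 in A1 and 303 to 357 CP20M in R4A1, ranges that all overlap. Its log2 fold change in R4 was 0.07 ± 0.09 (95% interval −0.11 to 0.24). Tcf7 was at 77, 50, 95 and 209 CP20M in lines M3, M3(2), M1(2) and M11 in Ve, and at 45, 45, 126 and 238 CP20M in R4. Line M11 was the highest in every treatment it had and M1(2) the next, while M3 and M3(2) changed places. Tested against Ve, the 3 members that passed the filter gave 0 calls in R4 (1.02% of all genes), R10 (7.33%), A1 (0%) and R4A1 (1.66%), and 0 between R4A1 and R4 (0.00906%). edgeR called 0 of them in each, and 0 stood at an unadjusted p under 0.05.

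The lines started from different levels and recur in each treatment, so values are given line by line. Axin2 was at 8, 41, 32 and 111 CP20M in Ve and 24, 175, 112 and 185 CP20M in R4, higher in each of the 4 lines. It was at 37, 94 and 71 CP20M in R10 (lines M3, M3(2) and M1(2)), at 3, 32, 31 and 114 CP20M in A1, and at 19, 126, 36 and 112 CP20M in R4A1. Nkd1 was at 27, 43, 21 and 36 CP20M in Ve, 37, 138, 66 and 66 CP20M in R4, and 66, 105 and 79 CP20M in R10. Both were above vehicle in each line of R4 and of R10, and while the groups overlapped in R4, all R10 values of Nkd1 lay above all Ve values.

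Sp5 in fibroblasts was at 5, 117, 24 and 20 CP20M in Ve and 20, 357, 57 and 70 CP20M in R4, again higher in each line. It was at 11, 82 and 35 CP20M in R10, 3, 49, 4 and 3 CP20M in A1, and 22, 239, 28 and 16 CP20M in R4A1. Line M3(2) was the highest in every treatment, and in A1 all 4 lines were below their vehicle library. These 3 genes (Axin2, Nkd1 and Sp5) were the members above vehicle in 4 of 4 lines in R4, as were 10.4% of all 31253 genes with any value above 0 in at least 2 libraries. In R10 Axin2 and Nkd1 were higher in 3 of 3 lines, as 16.3% of all genes were, and in R4A1 Axin2 in 4 of 4 lines, against 8.7%. Others were lower than vehicle in 4 of 4 lines, Rnf43 in R4 (9.98% of all genes), Sp5 in A1 (7.86%) and Lef1 in R4A1 (13.6%). Rnf43 was at 46, 39, 38 and 31 CP20M in Ve and 12, 36, 37 and 19 CP20M in R4, and Lef1 at 27, 44, 17 and 40 CP20M in Ve and 12, 34, 15 and 8 CP20M in R4A1.

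With the line as a block and the filter, Sp5 was called in R4 (log2 fold change 1.03 ± 0.30, adjusted p = 0.0192), in a fit that called 7.22% of all genes. It had entered that fit only through 2 drug-treated libraries in which it is high, so the call gives no support by itself, and the value without the filter follows. With the block and no filter, an alternative added after the values were seen, 3 of 10 members were called in R4, against 3.45% of all genes. Shares without the filter are over 31253 genes, those too low for the filter included, and are not those of expressed genes. With the filter the share in R4 was 7.22% of 11032 genes. The 3 members called were Axin2 (1.08 ± 0.24, adjusted p = 0.00648), Nkd1 (0.82 ± 0.24, 0.0392) and Sp5 (1.03 ± 0.26, 0.0167). All 3 calls were lost without line M1(2), those of Nkd1 and Sp5 without M11, and that of Nkd1 also without another line. In R10 Axin2 (0.85 ± 0.26, adjusted p = 0.0282) and Nkd1 (1.04 ± 0.26, 0.00816) were called, against 7.47% of all genes. Both calls were lost without M1(2), and that of Axin2 also without another line. In R4A1 0 of 10 were called, against 3.64%, with Axin2 at 0.46 ± 0.24 (0.277). With neither block nor filter, Axin2 in R4 had the same log2 fold change with an SE of 0.60 (adjusted p = 0.61).

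Beside these values, the 10 proliferation markers summed to 7712 to 10673 CP20M in Ve, 3848 to 9317 in R4 and 2901 to 3233 CP20M in R10, and the 6 macrophage markers to 1049 to 5555 CP20M in Ve, 630 to 1913 in R4 and 582 to 611 CP20M in R10. Their part in the Axin2, Nkd1 and Sp5 values was not tested. The other members were low throughout, Rnf43 between 12 and 49 CP20M, Lef1 between 8 and 44, and Ascl2, Notum and Lgr5 between 0 and 14 CP20M.

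**Figure D5:**
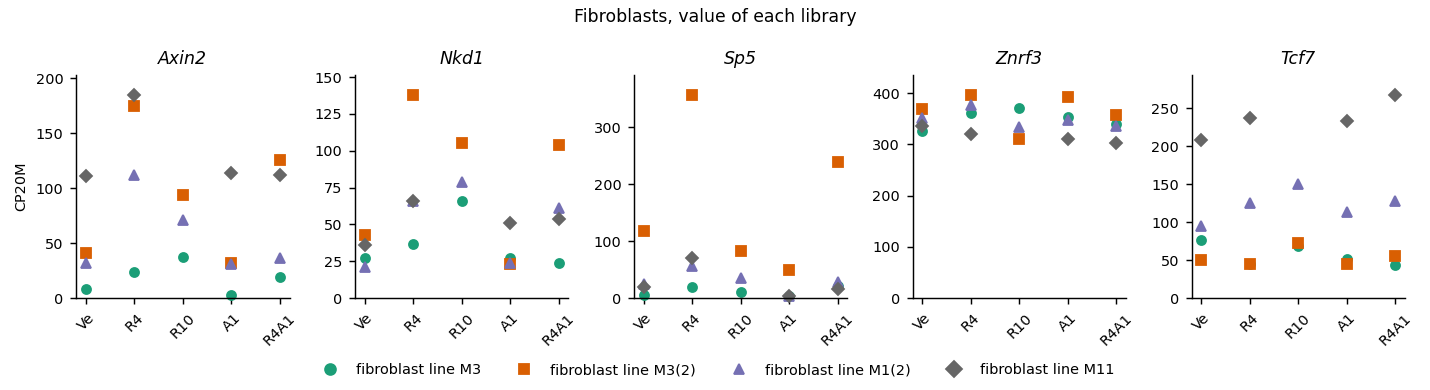
CP20M of 5 members in every fibroblast library by treatment (Ve, R4, R10, A1 and R4A1), with 1 symbol per line and linear axes from 0. Line M11 has no R10 library. Axin2, Nkd1 and Sp5 are higher in R4 than in Ve in each of the 4 lines, line M3(2) is the highest for Sp5, and Znrf3 is nearly level.

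Members were compared with all other genes by Pearson's r of log2(CP20M + 20) over the 24 organoid libraries, as a description only, since libraries share lines, genotypes and depth. The pattern most like Axin2 was that of its antisense neighbour Gm11670 (r = 0.96), followed by Nuak1 (0.93) and 4833427F10Rik (0.93). Axin2 itself went along with Znrf3 (0.89), Rnf43 (0.87) and Tcf7 (0.86) more closely than with Lgr5 (0.63), Ascl2 (0.53) or Sp5 (0.40). Rnf43 and Znrf3 had an r of 0.88 with each other, and Ascl2 and Lgr5 one of 0.71. Sp5 had an r of 0.03 with Ascl2 and 0.31 with Lgr5, which became 0.10 and 0.44 without the shallow library. This was not particular to Sp5. Without that library, Ascl2 was also low with Znrf3 (0.16) and Rnf43 (0.17), and Znrf3 had 0.42 with Lgr5. The genes closest to Sp5 were Tpra1 (0.83), R3hcc1 (0.79) and Fzd3 (0.79), those closest to Ascl2 were Tbl3 (0.92), Gtf3c5 and Scd1 (both 0.90), and among those closest to Lgr5 were Acin1 (0.94) and Hnrnph1 (0.91). For Znrf3 they were Zc3h12c (0.92), Gm45515 and Nup188 (both 0.91), for Rnf43 they were Zbtb38 (0.93), Poglut1 and Pdlim4 (both 0.90), and for Tcf7 they were AC122305.1 (0.94), Ifitm2 and Ewsr1 (both 0.93). Several of these places rest on the shallow library. When it was left out, the genes named ranked 6, 11 and 12 for Znrf3, 5, 18 and 19 for Rnf43, and 8, 12 and 28 for Tcf7. Hnrnph1 then ranked 12 for Lgr5. Without the shallow library the r of Axin2 and Sp5 was 0.58, and that of Axin2 and Gm11670 0.998. In the 19 fibroblast libraries Axin2 was closest to Gpd1l, Nat8l and Nod1 (each 0.96).

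Other genes of the pathway were taken from 7 lists written by role, and a gene was counted where it passed the same test for regorafenib over both genotypes. Of 56 tested genes in all, 8 (14.3%) rose and 5 (8.93%) fell, beside 7.58% and 8.63% of all genes. In colonoids alone 3 rose and 5 fell, beside 5.41% and 7.84% of all genes. In tumoroids alone 7 rose and 1 fell, beside 4.11% and 2.68%. For the interaction 0 of the 56 were called, against 0.00883% of all genes. Over both genotypes, of 19 Wnt ligands 2 were tested and 1 rose, Wnt7a (log2 fold change 2.03 ± 0.37, adjusted p = 0.00112). Of 15 receptors 11 were tested and 1 rose, Fzd3 (0.76 ± 0.25, 0.0376). Among R-spondins and other Lgr receptors, Lgr6 rose (2.61 ± 0.47, 0.000999) and Lgr4 fell (−0.71 ± 0.14, 0.00211), the 2 tested of 6.

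Within the cell, 1 of 13 cytoplasmic components rose, Tnks (0.67 ± 0.16, adjusted p = 0.00558), which marks Axin proteins for degradation. Of 8 tested nuclear cofactors 1 fell, the corepressor Tle3 (−0.90 ± 0.13, 0.000234). Of 4 tested genes in the list of secreted or membrane inhibitors 2 rose, Dkk2 (2.78 ± 0.60, 0.00333) and Sfrp2 (1.79 ± 0.43, 0.00625). Of 16 tested other target genes of the gut, 2 rose, Jag1 (1.38 ± 0.14, 1.61e-05) and Sox4 (1.1 ± 0.20, 0.00118), and 3 fell, Myc (−0.89 ± 0.18, 0.00205), Cdca7 (−1.29 ± 0.26, 0.00219) and Tiam1 (−1.05 ± 0.22, 0.00287). Cdca7 and Tiam1 were named after their values were seen. In the vehicle comparison of genotypes 0 genes of these 7 lists were called by limma.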

How the data were processed

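Gene-level signal values in CP20M were used as deposited, 24 organoid and 19 fibroblast libraries in 2 tables. The authors trimmed reads (Trimmomatic 0.36), aligned them (STAR 2.5.3a), counted them per gene (HTSeq 0.9.1) on GRCm38, and scaled each library to 20000000 counted reads, rounding up. Strand use in counting is not given in the sources used here. Whole reads recovered from the steps of the values gave each library's depth and the edgeR alternative, with the whole share of values above 99%.

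Groups followed the library names, as the genotype labels do, which conflict with the titles of 3 tumoroid 5-FU libraries (named colonoid) and supply the line that 1 fibroblast title lacks. The unit was not a count, so limma 3.58.1 (R 4.3.3, eBayes with trend, two-sided) on log2(CP20M + 20) was the main test, with genes at 200 CP20M in at least 2 libraries, Benjamini-Hochberg adjustment over all genes tested, and a call at an adjusted p under 0.05 and 1.5-fold (the interaction without a fold limit). Regorafenib comparisons used the 18 vehicle and regorafenib organoid libraries (11320 genes), 5-FU the 24 (11562 genes) and fibroblasts the 19 (11032 genes). The scripts were tested on simulated data. Tables were scaled separately, so tests stayed within a table.

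Same-numbered libraries are the same line and were taken as pairs in the alternative with the line as a block. Deviations from group means correlated at 0.503 on average within organoid lines (0.012 to 0.885, 36 pairs) and −0.249 between lines, and at 0.719 and −0.229 in fibroblasts. Other alternatives were pseudocounts of 4 and 100 CP20M, no filter, TMM scaling, edgeR 4.0.16 quasi-likelihood on recovered reads, each line left out, and the M41 library at 4 µM left out. No pair of replicate libraries agreed within sampling noise. Separate mice are stated for the organoid lines and, in the paper's figure legend, for the fibroblast lines.

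All 10 members are named, with up to 3 genes called in each other Wnt list and the 3 genes most like each tested member, of which 1 is not reported here. Members and lists were chosen with earlier results of these data known. Gene positions are of GRCm38 (GENCODE M21), promoters of RefSeq GRCm38.p6. Intervals and zero limits cover counting error only. Figures were drawn with matplotlib 3.10.9.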

Additional observations from a re-analysis of the deposited data

Results flagged for a closer look

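In the fibroblast groups of 4 libraries, 40 member and treatment pairs were examined for a library far from the others, and 6 stood out, where chance gives about 1 in 20. Sp5 made up 4 of the 6, each time with line M3(2) as the highest library. In Ve it was at 117 CP20M against 24 CP20M in the next line, in R4 at 357 against 70, in A1 at 49 against 4, and in R4A1 at 239 against 28 CP20M. The groups share their lines, so these are not independent. Nkd1 in A1 was highest in line M11, at 51 CP20M against 27 CP20M in the next line. Notum in A1 was at 3 CP20M in line M3 and at 0 in the others, a level of about 1 read.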

How the results depend on the processing

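No called direction turned under any alternative. Of 1596 alternative values of members, 63 had the other sign, none among the 50 of 99 member comparisons that were called or over 1 SE. Members called between genotypes in vehicle numbered 2, against 1 without the filter, 4 without the M41 library at 4 µM, 0 with the 6 vehicle libraries alone and 0 at an adjusted p of 0.01 and a log2 fold change of 1. Regorafenib over both genotypes called 2, 1 at an adjusted p of 0.001, and 3 (Lgr5 added) with edgeR or all 24 libraries. In colonoids it called 1, and 2 with TMM, edgeR, the line as a block (also without the M41 library) or all 24 libraries. In tumoroids it called 1, and 0 with a pseudocount of 4 CP20M or no filter. Between genotypes under regorafenib 4 became 2 without the filter, and under 5-FU 0 became 1 with TMM, edgeR or without the M41 library. In fibroblasts in R4, 0 became 1 with the line as a block and 3 with the block and no filter, and in R10 0 became 2 with the block and no filter. With the filter, the replicate block likewise gave 3 for regorafenib over both genotypes and changed no other count. No paired analysis was possible between genotypes, because no line has both.

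With each line left out, the calls ranged from 0 to 2 between genotypes in vehicle, 0 to 3 for regorafenib over both genotypes, 0 to 1 within colonoids and within tumoroids, 1 to 4 between genotypes under regorafenib and 0 to 1 under 5-FU. Without filter and with the block they ranged from 0 to 3 in fibroblast R4 and 0 to 2 in R10. Without filter and without tumoroid line F11 or M14 (added after the data were seen) they were 0 and 0 between genotypes in vehicle and 0 and 0 in tumoroids, and without M14 1 for regorafenib and 1 between genotypes under it. The cause of these changes was not tested. Depth limits the M41 library at 4 µM most, where 3 reads are 117 CP20M.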

Other observations

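Other Wnt genes, outside the members, also differed between genotypes under regorafenib. That fit counted the R4 and R8 libraries of a line as separate, so its adjusted p-values are likely too small. Lgr6, an R-spondin receptor, was higher in tumoroids (log2 fold change 3.16 ± 0.54, limma adjusted p = 0.00657), as were the corepressor Tle3 (0.92 ± 0.15, 0.00588) and the secreted Lrp ligand Dkk2 (3.46 ± 0.69, 0.0157). Of 16 tested other gut target genes 5 were higher and 1 lower in tumoroids, beside 1.64% and 0.477% of all genes, led by Tnfrsf19 (3.67 ± 0.52, 0.00233), Tiam1 (1.51 ± 0.25, 0.00588) and Cdca7 (1.71 ± 0.30, 0.00718). Between 8 and 4 µM regorafenib the Notch ligand Jag1 was lower at the higher dose (−0.82 ± 0.17, 0.0399).

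5-FU over both genotypes raised Wnt9a (1.34 ± 0.29, adjusted p = 0.0167), Jag1 (0.90 ± 0.16, 0.00629) and Sox4 (1.08 ± 0.26, 0.0296). In fibroblasts Jag1 rose in R4 (1.12 ± 0.21, 0.0119). In R10 the receptor Fzd5 rose (1.07 ± 0.12, 3.46e-05), the secreted Wnt binder Frzb fell (−1.24 ± 0.25, 0.00358) and Dkk3 rose (0.98 ± 0.31, 0.0419). Among 14 tested other targets there, Smoc2 (2.61 ± 0.50, 0.00251) and Jag1 (0.81 ± 0.23, 0.0277) rose and 2 fell, with Myc at −0.83 ± 0.15 (0.00186), beside 3.25% and 4.09% of all genes.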
